A study of Mus musculus with 80 samples.

Results

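The comparison set a wild-type against a mutant form of SALL4A in Sall4 knockout (KO) embryonic stem (ES) cells of the mouse, which renew themselves and can form every lineage of the embryo. It rests on 2 of the 80 samples of the series, taken by their labels: the RNA-seq library of KO cells transfected with wild-type SALL4A (KO plus WT) and replicate 1 of KO cells transfected with mutant SALL4A (KO plus mutant 1). Both tables list the same 23234 gene symbols, and the 8086 genes at 5 or more FPKM (fragments per kilobase of transcript, scaled to mapped fragments) in at least 1 of the 2 libraries were compared. With 1 library a side there is no replicate check of any difference, so each value describes these libraries and no p-value is given. The form of SALL4A and any other difference between the 2 cell populations cannot be told apart.

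The recipient cells are labelled Sall4 KO, a genotype that the KO samples spell out as Sall4 delta/- (1 allele with the floxed segment deleted over a null allele), and the background strain of both libraries is labelled C57BL/6J. A second library of KO plus mutant cells (KO plus mutant 2) is labelled E14.1 on 129P2/OlaHsd, carries a transgene written Flag-SALL4A-MUT, and has values in RPKM (reads per kilobase, scaled to mapped reads) on another annotation. The descriptions of both mutant libraries nevertheless point to the same sample record. For reference, the text also gives the Sall4 flox/- cells (het) and the Sall4 KO cells, each with replicate 1 in FPKM under the C57BL/6J label and replicate 2 in RPKM under the E14.1 label. The remaining 4 groups, labelled C57BL/6J with 1 FPKM library each, were used for levels only: Sall1-/-/Sall4-/- cells (DKO), their wild-type control, Sall1 flox/- cells and Sall1 delta/- cells. The labels used here do not give the residues changed in the mutant, the promoter of the transgenes, the time after transfection, or whether the cells are 1 clone.

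SALL4 is a zinc finger transcription factor of the spalt-like family that helps ES cells keep their identity, and SALL4A is its long isoform, with more zinc finger clusters than the short form. TET enzymes oxidise 5-methylcytosine in DNA to 5-hydroxymethylcytosine and further forms, and TDG excises the most oxidised of these as a step towards unmethylated cytosine. The series title speaks of cooperation between SALL4A and TET proteins, and setting a mutant protein beside the wild-type one asks which transcript levels differ with the form of SALL4A that is added back.

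In the text below a log2 ratio is log2(scaled FPKM + 1) in KO plus WT minus that in KO plus mutant 1, so that 1 is a 2-fold difference, and libraries were scaled to each other by the median ratio. The depth of the libraries is unknown. Of the 8086 entries, 175 (2.16%) were 2-fold or more higher in KO plus WT and 100 (1.24%) were 2-fold or more lower. Small RNA entries (microRNAs, small nucleolar and spliceosomal RNAs and the like) gave many of these. Of 210 such entries, 113 (53.8%) were past 2-fold, 71 of them higher and 42 lower in KO plus WT, with an SD of the log2 ratio of 3.55 over entries. The lower of the 2 libraries was listed at 0 for 37 of the 71 and 32 of the 42. Small RNA entries made up 51.5% of the summed FPKM in KO plus WT and 34.1% in KO plus mutant 1. Among the remaining 7876 genes, which the rest of the text describes, 162 (2.06%) were past 2-fold: 104 (1.32%) were higher and 58 (0.736%) lower in KO plus WT, with a median log2 ratio of 0.01 and an SD of 0.34 over genes.

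**Figure D1:**
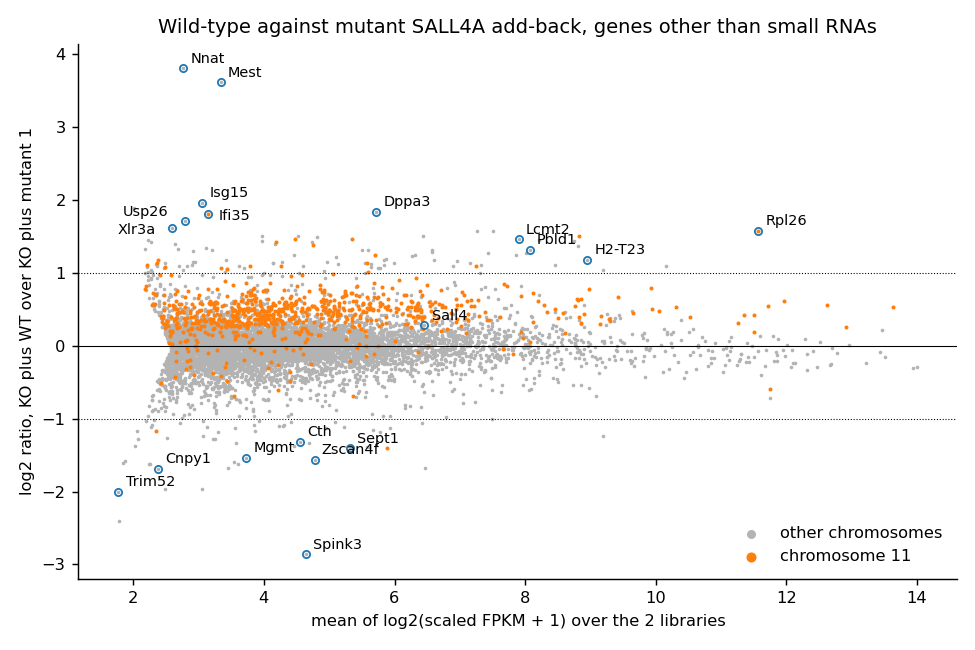
Each point is 1 of the 7876 genes that are no small RNA; the x axis is the mean of log2(scaled FPKM + 1) over the 2 libraries and the y axis the log2 ratio of KO plus WT over KO plus mutant 1. Dotted lines mark 2-fold, blue circles the labelled genes, and orange points the genes of chromosome 11, whose median lies at 0.44 while Nnat and Mest reach 3.81 and 3.61.

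The 2 mutant libraries differed from each other more often than KO plus WT differed from KO plus mutant 1. Over 8367 genes listed in all 3 tables, 162 (1.94%) were past 2-fold between KO plus WT and KO plus mutant 1, against 1251 (15.0%) between the 2 mutant libraries and 1445 (17.3%) between KO plus WT and KO plus mutant 2. These last 2 comparisons cross units and annotations, so the unit, the annotation, the strain label and the culture cannot be told apart in them. KO plus WT lay 2-fold or more above both mutant libraries for 67 genes (0.801%) and below both for 26 (0.311%). Because the 2 ratios share the KO plus WT library, a gene found in both shows only where that library stands apart from both mutant libraries.

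Both libraries had the transcripts of ES cells. All 10 ES cell markers were at 5 or more in both, from 23.2 to 2725 FPKM in KO plus WT and from 33.1 to 4337 in KO plus mutant 1. Markers of primitive endoderm (7 genes), trophoblast (5), mesoderm (4) and blood (3 of 4 listed) were all under 2 FPKM in both. The summed level of 17 fibroblast feeder markers was 17.4 FPKM in KO plus WT, 13.5 in KO plus mutant 1 and 7.86 RPKM in KO plus mutant 2, with Thy1 the highest at 5.60, 4.03 and 2.36. The growth protocol, written for TT2 cells, is one without feeders. Of 4 neuroectoderm markers only Tubb3, a neuronal tubulin, was at 5 or more, at 34.8 and 32.7 FPKM.

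Sall4 itself was at 97.4 FPKM in KO plus WT and 77.4 in KO plus mutant 1, a log2 ratio of 0.28, and at 161 RPKM in KO plus mutant 2. The libraries labelled Sall4 KO held 358 FPKM and 218 RPKM, and the het libraries 196 FPKM and 64.2 RPKM, so Sall4 was no lower in the KO than in the het libraries. Outside these lines it was at 109 FPKM in the DKO library and between 17.6 and 18.6 in the DKO's wild-type control and in the Sall1 het and KO libraries. A gene-level value sums the transgene and any transcript of the deleted allele, which cannot be told apart in it, so it checks neither the deletion nor the dose of the added protein. Sall1, another spalt-like factor of ES cells, was at 48.8 and 43.9 FPKM (log2 ratio 0.10). Sall2 was at 2.97 and 2.01 FPKM and Sall3 at 0.24 and 0.20, under the limit of 5 for the comparison.

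Of 19 genes for cytosine methylation, oxidation or repair at 5 or more, 11 lay above 0 and 8 below, with a median of 0.08, and none was past 2-fold with the scaling and pseudocount used. Tet1, the main TET enzyme of ES cells, was at 15.6 FPKM in KO plus WT against 22.6 in KO plus mutant 1 (log2 ratio -0.56, and -0.37 over KO plus mutant 2). Tet2 was at 3.64 and 5.60 FPKM (-0.55), and Tet3 at 0.94 and 1.07. Tdg, which encodes the glycosylase that removes oxidised cytosines, was at 23.37 and 11.02 FPKM (0.98), just under 2-fold. It was past 2-fold without scaling (1.02) or with a pseudocount of 0.1 (1.03), and was at 17.3 RPKM in KO plus mutant 2 (0.33). Dnmt3b, a de novo DNA methyltransferase, was at 38.2 and 22.3 FPKM (0.70), and Dnmt3l, its catalytically inactive partner, at 220 and 134 (0.67). Gadd45a, a stress-induced gene linked to demethylation, was the lowest of the list at 21.6 and 37.8 FPKM (-0.83). Tet1, Tet2 and Gadd45a were also higher in KO plus mutant 2 than in KO plus WT, while Dnmt3l was less apart from it, at 180 RPKM (0.20).

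The imprinted genes Nnat and Mest had the highest log2 ratios of all genes the naming rule allows. Imprinted genes are expressed from the allele of 1 parent, which is set by DNA methylation laid down in the germline, and both of these are expressed from the paternal allele. Nnat encodes neuronatin, a small membrane proteolipid of the brain, and Mest a hydrolase of mesodermal tissue. In an RNA level from many cells, fewer cells with the transcript and less transcript per cell cannot be told apart. The bases upstream of their annotated starts are shown here because DNA methylation acts on their CpG dinucleotides, which are in capitals. They come from RefSeq on GRCm38.p6 and read 5′ to 3′ on the gene's strand, ending at the base before the start. Mest has more than 1 annotated start, of which the windows of 2 are given.
Nnat, chr2:157559828-157560077, plus strand: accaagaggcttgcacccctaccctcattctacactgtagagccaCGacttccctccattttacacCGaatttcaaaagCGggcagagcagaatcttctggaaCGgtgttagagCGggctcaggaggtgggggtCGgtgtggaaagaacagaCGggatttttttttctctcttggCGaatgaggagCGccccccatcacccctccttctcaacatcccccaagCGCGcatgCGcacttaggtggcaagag
Mest, chr6:30737800-30738049, plus strand: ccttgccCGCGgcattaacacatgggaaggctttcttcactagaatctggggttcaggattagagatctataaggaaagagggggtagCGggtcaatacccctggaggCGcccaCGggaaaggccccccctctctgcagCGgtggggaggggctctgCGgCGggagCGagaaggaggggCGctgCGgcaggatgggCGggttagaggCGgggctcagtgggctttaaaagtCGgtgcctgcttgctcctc
Mest, chr6:30733256-30733505, plus strand: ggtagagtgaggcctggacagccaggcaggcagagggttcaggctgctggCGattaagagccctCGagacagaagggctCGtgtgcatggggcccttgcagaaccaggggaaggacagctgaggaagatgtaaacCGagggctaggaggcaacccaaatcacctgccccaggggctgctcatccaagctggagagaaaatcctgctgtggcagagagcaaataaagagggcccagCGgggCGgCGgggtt

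The Nnat window holds 12 CpG, the Mest window that ends at 30738049 holds 14 and the other 7, against a median of 6 over the 32851 windows of the same length. Of all windows, 68.5%, 72.7% and 57.0% hold as many CpG or fewer, in that order, so such counts are common. DNA methylation of these windows was not analysed here.

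Nnat was at 24.8 FPKM in KO plus WT, 0.80 in KO plus mutant 1 and 1.15 RPKM in KO plus mutant 2. It was at 6.58 FPKM and 9.69 RPKM in the Sall4 KO libraries and 17.61 FPKM and 19.003 RPKM in the het libraries. Both mutant libraries were thus lower than all 5 others, and KO plus WT was the highest of the 7. Such orders over the 7 libraries, here and below, compare deposited values that were not scaled to each other and cross units and annotations. The log2 ratio of KO plus WT was 3.81 over KO plus mutant 1 and 3.52 over KO plus mutant 2. Nnat lies inside Blcap, and the table gives both the same interval, chromosome 2 from 157382097 to 157392097 on mm9. Blcap was at 14.8 FPKM in KO plus WT, 15.8 in KO plus mutant 1 and 14.4 RPKM in KO plus mutant 2 (log2 ratio -0.14 over KO plus mutant 1), without the step of Nnat.

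Mest was at 35.0 FPKM in KO plus WT, 1.86 in KO plus mutant 1 and 0.50 RPKM in KO plus mutant 2. It was at 12.3 FPKM in Sall4 KO replicate 1 and 41.5 in het replicate 1, and neither replicate 2 table lists it. As for Nnat, both mutant libraries were the lowest, and the log2 ratios were 3.61 and 4.53. Its interval is chromosome 6 from 30683505 to 30846760 on mm9. Phlda2, a maternally expressed growth restrictor of the placenta, was the third imprinted gene past 2-fold, at 34.9 and 15.3 FPKM and 8.85 RPKM (log2 ratio 1.09 over KO plus mutant 1). Cdkn1c, a maternally expressed cell cycle inhibitor, was at 7.01 and 3.34 FPKM and 1.78 RPKM (0.85). Over the whole list of 20 imprinted genes at 5 or more, Nnat, Mest and Phlda2 were 2-fold higher (1.32% of all genes were) and none was 2-fold lower. Nnat and Mest passed the filter only through KO plus WT, where they were high. The list was mixed in direction, with 11 above 0, 9 below and a median of 0.02. Peg10, a paternally expressed retrotransposon-derived gene, had the lowest ratio of the list at 22.99 and 38.22 FPKM (-0.75).

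**Figure D2:**
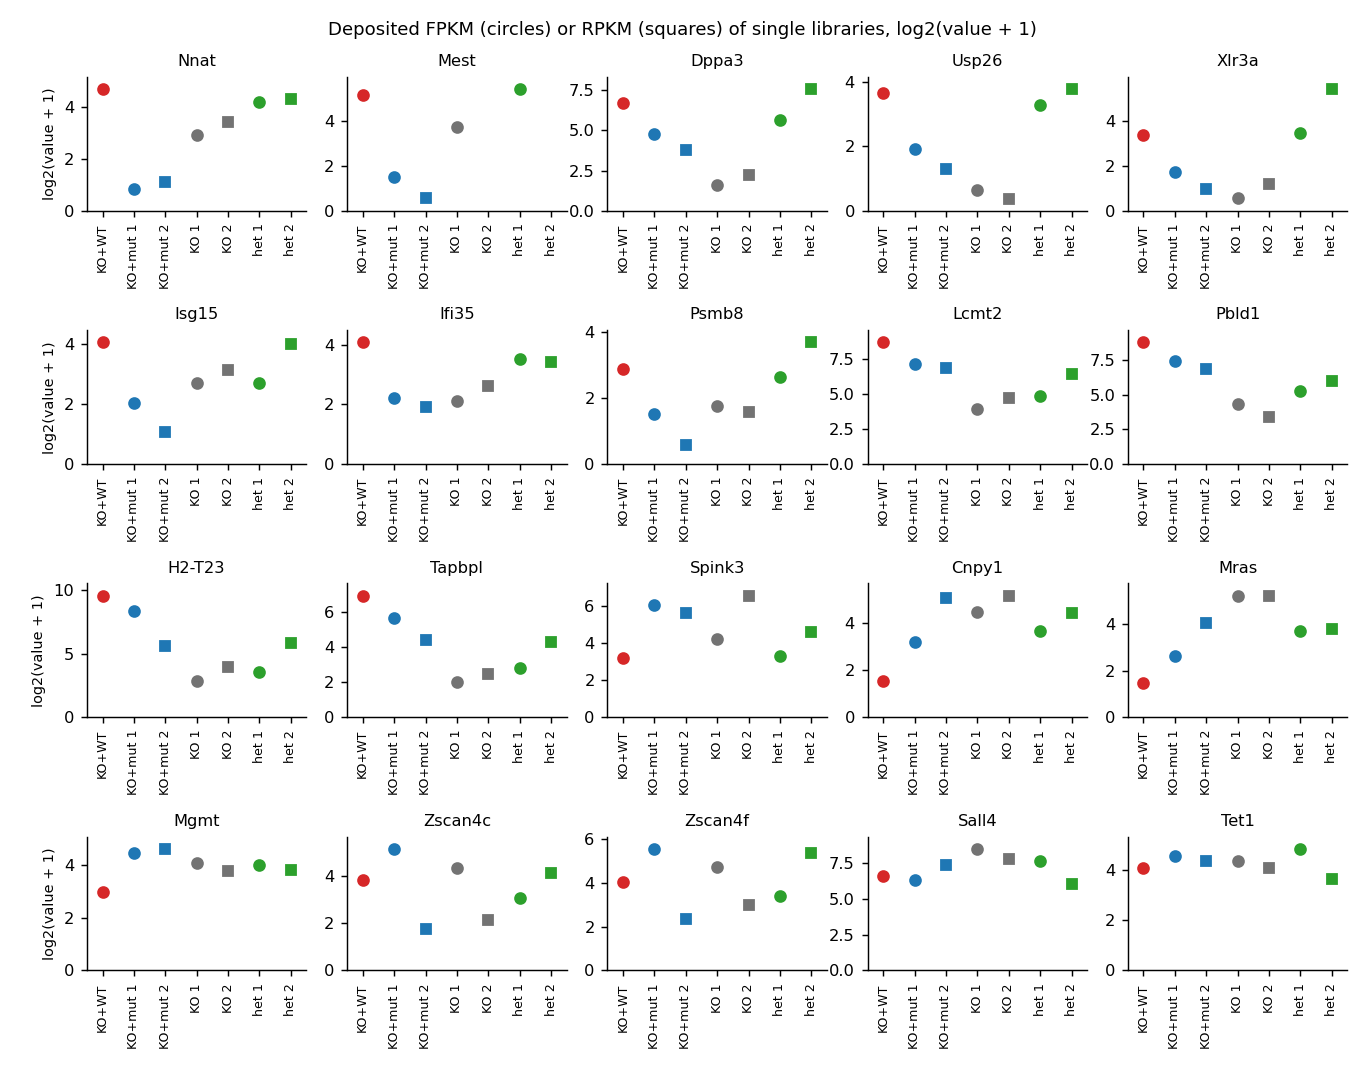
Each panel is 1 gene, with log2(deposited value + 1) on the y axis and 7 single libraries on the x axis: KO plus WT (red), KO plus mutant 1 and 2 (blue), Sall4 KO 1 and 2 (grey) and het 1 and 2 (green). Circles are FPKM and squares RPKM, a missing point is a gene the table does not list, and both mutant points of Nnat lie below the other 5 while Zscan4c and Zscan4f are high in KO plus mutant 1 and low in KO plus mutant 2.

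Dppa3 and the X-linked gene Usp26 stood in steps, lowest in the KO libraries, higher in both mutant libraries and higher again in KO plus WT. X-linked Xlr3 genes were also highest in KO plus WT among the add-back libraries. Dppa3 (Stella), a maternal factor of the egg and early germ cells that protects the maternal genome of the zygote from TET-dependent demethylation, was at 101 FPKM in KO plus WT, 26.4 in KO plus mutant 1 and 12.7 RPKM in KO plus mutant 2. The Sall4 KO libraries held 2.11 FPKM and 3.58 RPKM and the het libraries 47.7 FPKM and 183 RPKM. The log2 ratio was 1.84 over KO plus mutant 1 and 2.80 over KO plus mutant 2. Its interval is chromosome 6 from 122576441 to 122580289 on mm9.

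Usp26, an X-linked deubiquitinase of the testis, was at 11.6 FPKM in KO plus WT, 2.77 in KO plus mutant 1 and 1.43 RPKM in KO plus mutant 2 (log2 ratio 1.71 over KO plus mutant 1). Its Sall4 KO values were 0.57 FPKM and 0.29 RPKM and its het values 8.74 FPKM and 12.6 RPKM, so that KO plus WT lay in the range of the het libraries. Xlr3a, of the X-linked lymphocyte-regulated cluster, was at 9.67 FPKM, 2.39 FPKM and 0.96 RPKM in the same order (1.62), with 0.48 FPKM and 1.32 RPKM in the KO and 10.1 FPKM and 42.3 RPKM in the het libraries. Its neighbour Xlr3b was at 6.81 FPKM, 1.79 FPKM and 0.34 RPKM (1.45). In KO plus mutant 2 both Xlr3 genes were no higher than in Sall4 KO replicate 2, which held 1.32 RPKM of Xlr3a and 0.40 of Xlr3b. These copies are near-identical, so reads may be split among them and the single values are uncertain. Of 19 listed Xlr and Mage germline genes, only these 2 were at 5 or more, and they passed the filter only through KO plus WT. Pnma5, of the paraneoplastic antigen family, starts at 70279319 on the X chromosome, next to Xlr3a at 70331631 on mm9. It was at 25.3 FPKM, 8.36 FPKM and 4.95 RPKM (1.44). Irak1, a kinase of Toll-like receptor signalling also on the X chromosome, was at 148 FPKM, 49.8 FPKM and 44.5 RPKM (1.503), but at 56.7 FPKM in Sall4 KO replicate 1 and 17.5 in het replicate 1, so it did not share the order of Dppa3. The X chromosome as a whole had a median log2 ratio of -0.07 over 249 genes.

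Every one of the 14 interferon response and antigen presentation genes at 5 or more was higher in KO plus WT than in KO plus mutant 1. The median log2 ratio was 0.63, against 0.01 over all 7876 genes, of which 52.3% lay above 0, and 2 of the 14 were past 2-fold up, against 1.32% of all genes. These 2, Isg15 and Psmb8, reached 5 FPKM only in KO plus WT, so the filter let them in through the library where they were high. With upper-quartile scaling Stat2 (-0.04) and Ifitm2 (-0.01) lay just below 0, so the direction of these members depends on the scaling. Without scaling or with a pseudocount of 0.1 Irf1 was past 2-fold as well (1.006 and 1.005). Interferon-stimulated genes are switched on through the interferon-stimulated response element, a short motif in their promoters. The 250 bases before the starts of Isg15 and Bst2 are shown because they hold that element in a run of GAAA blocks. The motif searched was a pair of GAAA blocks with any 2 bases between them, or of TTTC blocks for the other strand. Capitals mark matches, and overlapping matches run together. Sequences are from RefSeq on GRCm38.p6, 5′ to 3′ on the gene's strand.
Isg15, chr4:156200819-156201068, minus strand: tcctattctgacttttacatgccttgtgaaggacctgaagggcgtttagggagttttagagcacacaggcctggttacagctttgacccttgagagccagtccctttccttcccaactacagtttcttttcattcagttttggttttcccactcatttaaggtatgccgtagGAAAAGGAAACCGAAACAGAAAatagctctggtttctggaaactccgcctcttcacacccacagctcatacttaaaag
Bst2, chr8:71537473-71537722, minus strand: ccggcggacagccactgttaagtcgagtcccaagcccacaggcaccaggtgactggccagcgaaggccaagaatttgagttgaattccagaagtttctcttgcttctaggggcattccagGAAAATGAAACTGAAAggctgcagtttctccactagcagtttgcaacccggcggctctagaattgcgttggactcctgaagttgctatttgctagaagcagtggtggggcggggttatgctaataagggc

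Isg15 had 3 overlapping matches, starting 78, 72 and 66 bases before the gene start, and Bst2 had 2, starting 130 and 124 bases before it. A match stood in 2.98% of the 32851 windows of this length and in the windows of 3.46% of 27025 genes. Of the 14 interferon genes at 5 or more, 6 (42.9%) had a match: Stat2, Isg15, Ifitm2, Oas1a, Bst2 and B2m. The log2 ratios of these 6 were 0.01, 1.96, 0.05, 0.51, 0.87 and 0.61 in that order. Genes with and without the motif were not compared.

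Isg15, a ubiquitin-like modifier, was at 15.6 FPKM in KO plus WT, 3.15 in KO plus mutant 1 and 1.09 RPKM in KO plus mutant 2, with log2 ratios of 1.96 and 2.92. The KO libraries held 5.46 FPKM and 7.75 RPKM and the het libraries 5.59 FPKM and 14.9 RPKM, so the mutant libraries were the lowest of the 7. Psmb8, an immunoproteasome subunit, was at 6.29 FPKM, 1.84 FPKM and 0.48 RPKM in KO plus WT and the mutant libraries (1.32 over KO plus mutant 1), with 2.36 FPKM and 1.98 RPKM in the KO and 5.18 FPKM and 11.8 RPKM in the het libraries. Irf1, an interferon-induced transcription factor, was at 29.15 FPKM, 14.01 FPKM and 8.93 RPKM (0.96). It lies on chromosome 11, and its ratio was 0.52 relative to that chromosome's median. Bst2 (tetherin), which holds budding virus at the membrane, was at 165 FPKM, 86.8 FPKM and 93.1 RPKM (0.87). Over KO plus mutant 2 the list's median was 0.80, over 15 members.

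Other genes of the same pathways, which were not on the list, are given for their levels only. They were picked by a high ratio or after their values were seen, so their shared direction is no added support. Ifi35, an interferon-induced leucine zipper protein, was at 15.8 FPKM, 3.67 FPKM and 2.79 RPKM (log2 ratio 1.81, or 1.37 relative to the chromosome 11 median). Psmb10, another immunoproteasome subunit, was at 43.2 FPKM, 15.0 FPKM and 12.05 RPKM (1.42). Zbp1, a sensor of left-handed nucleic acid, was at 9.32 FPKM, 2.80 FPKM and 0.95 RPKM (1.402), and the guanylate-binding protein gene Gbp2 at 9.29 FPKM, 2.99 FPKM and 1.49 RPKM (1.33). Psme2, a proteasome activator subunit, was at 123 and 49.5 FPKM (1.25) but at 99.3 RPKM in KO plus mutant 2 (0.21), so its difference was not seen over that library.

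A set of genes was far higher in all add-back libraries than in the KO libraries and highest in KO plus WT. Only Lcmt2 among them was named by the rule, and the others were chosen after their values were seen. Lcmt2, a tRNA wybutosine synthesis enzyme, was at 403 FPKM in KO plus WT, 140 in KO plus mutant 1 and 114 RPKM in KO plus mutant 2 (log2 ratio 1.47), against 14.3 FPKM and 24.7 RPKM in the KO and 27.3 FPKM and 84.5 RPKM in the het libraries. Its interval is chromosome 2 from 120963027 to 120966434 on mm9. Pbld1, of the phenazine biosynthesis-like family, was at 431 FPKM, 166 FPKM and 113 RPKM (1.32), against 19.24 FPKM and 9.50 RPKM in the KO libraries. H2-T23, a nonclassical class I histocompatibility gene, was at 759 FPKM, 323 FPKM and 47.3 RPKM (1.18), against 6.26 FPKM and 14.2 RPKM in the KO libraries. All 3 were thus above their het values in KO plus WT.

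Tapbpl, a tapasin-related chaperone of class I loading, was at 119 FPKM, 48.6 FPKM and 19.8 RPKM (1.23), against 2.96 FPKM and 4.56 RPKM in the KO libraries. Chrna1, the muscle nicotinic receptor alpha subunit, was at 71.3 FPKM, 27.1 FPKM and 15.8 RPKM (1.32), against 2.09 FPKM and 2.99 RPKM. Ripply3, a T-box co-repressor, was at 151 FPKM, 58.2 FPKM and 50.0 RPKM (1.31), against 5.52 FPKM and 11.2 RPKM. Tnfsf10, the death ligand TRAIL, was at 13.7 FPKM, 4.74 FPKM and 4.12 RPKM (1.32), against 0.34 FPKM and 0.37 RPKM. In each of these 7 genes KO plus WT was the highest of the 7 libraries. Mpv17l (1.27), Cxcr2 (1.14), Slc7a14 (1.12) and Lepr (1.18) had the same order of KO plus WT, mutant and KO libraries.

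Replication-dependent histones were also higher, with 6 of 32 genes past 2-fold up, none down, and a median of 0.54, with 26 above 0. Over all genes 1.32% were past 2-fold up and 52.3% lay above 0. Over both mutant libraries 1 of the 35 histone genes compared was 2-fold higher, Hist1h2bn, and the list's median over KO plus mutant 2 was 0.84 over 34 members. These mRNAs end in a stem-loop rather than a poly(A) tail. The labels and headers used here do not say how RNA was selected for the libraries. The small RNA entries, also without a poly(A) tail, took the larger share of the sum in the same library (51.5% against 34.1%), and their part in the histone values was not tested. Hist1h2bj was at 11.1 FPKM in KO plus WT, 3.75 in KO plus mutant 1 and 4.93 RPKM in KO plus mutant 2 (log2 ratio 1.31), and at 15.5 and 30.2 FPKM in KO and het replicate 1. Hist1h2bn was at 7.46 FPKM, 2.73 FPKM and 2.97 RPKM (1.14). With a pseudocount of 5 both were under 2-fold (0.85 and 0.67). Of the libraries compared, all of these named histone genes reached 5 FPKM only in KO plus WT. The filter thus let them in through the library where they were higher. KO plus WT was below the FPKM libraries of KO and het for Hist1h2bj and Hist1h2bn. Histone genes are near-identical copies, so their reads may be split among them.

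**Figure D3:**
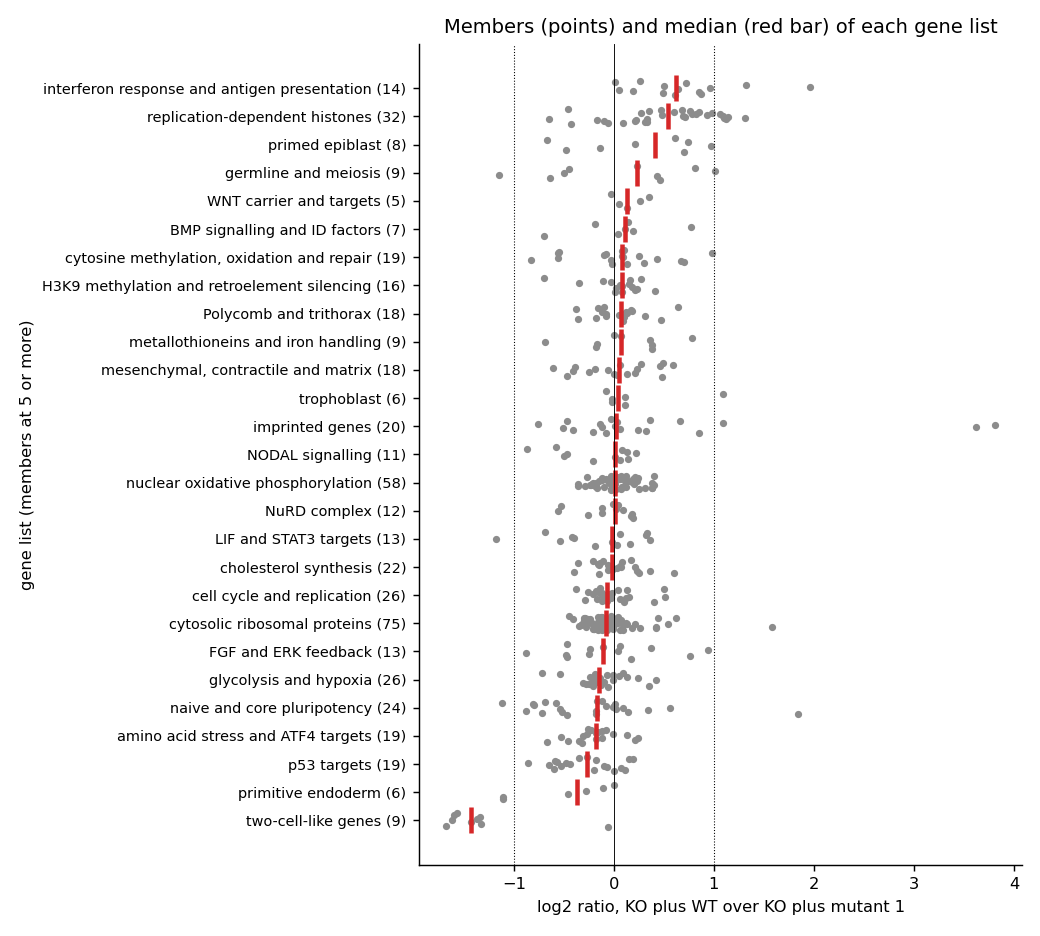
Each grey point is a gene at 5 or more FPKM in at least 1 of the 2 libraries, on the x axis by its log2 ratio of KO plus WT over KO plus mutant 1, in the 27 gene lists with 5 or more such members (number in brackets on the y axis). Red bars are list medians, from -1.42 for the 2-cell-like genes to 0.63 for the interferon genes, and dotted lines mark 2-fold.

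Genes on the list of naive and core pluripotency were slightly lower in KO plus WT than in KO plus mutant 1. Of 24 such genes 16 lay below 0, with a median of -0.17, and 1 was past 2-fold in each direction. The gene past 2-fold up was Dppa3, described above. Tcl1, a co-activator of AKT, was the one past 2-fold down, at 24.9 FPKM in KO plus WT, 53.3 in KO plus mutant 1 and 74.0 RPKM in KO plus mutant 2 (log2 ratio -1.11). Fgf4, the growth factor that primes ES cells for differentiation, was at 24.7 FPKM, 44.9 FPKM and 49.0 RPKM (-0.88). Tbx3, a T-box factor of the naive state, was at 6.26 FPKM, 11.38 FPKM and 19.02 RPKM (-0.81). The core factors were less apart: Pou5f1 was at 453 and 463 FPKM (-0.08), Sox2 at 338 and 324 (0.02), and Nanog at 587 and 386 (0.56). Over KO plus mutant 2 the list's median was 0.03, over 21 members.

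The lowest ratio of a gene allowed by the rule was that of Spink3, a trypsin inhibitor of the pancreas. It was at 8.43 FPKM in KO plus WT, 65.6 in KO plus mutant 1 and 49.8 RPKM in KO plus mutant 2, with log2 ratios of -2.86 and -2.52. The KO libraries held 17.5 FPKM and 95.1 RPKM and the het libraries 9.08 FPKM and 24.0 RPKM, so KO plus WT was close to het replicate 1. Its interval is chromosome 18 from 43887722 to 43896891 on mm9. Trim52, of the tripartite motif family, was at 0.72 FPKM, 5.73 FPKM and 4.51 RPKM (-2.001), while the KO libraries were at 0.61 FPKM and 0.93 RPKM. In Trim52, then, the mutant libraries were the high ones and KO plus WT stood with the KO libraries.

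Cnpy1, a regulator of FGF receptors, was at 1.93 FPKM in KO plus WT, 8.21 in KO plus mutant 1 and 32.4 RPKM in KO plus mutant 2 (-1.69), with 21.1 FPKM and 34.4 RPKM in the KO libraries. Mras, a RAS-related GTPase, was at 1.80 FPKM, 5.17 FPKM and 15.5 RPKM (-1.17), with 35.9 FPKM and 36.5 RPKM in the KO and 11.9 FPKM and 12.8 RPKM in the het libraries. In Cnpy1 and Mras KO plus WT was the lowest of the 7 libraries. Mgmt, which repairs alkylated guanine, was at 6.91 FPKM, 21.2 FPKM and 23.8 RPKM (-1.53), with the other 4 libraries between 12.8 RPKM in KO replicate 2 and 16.1 FPKM in KO replicate 1. Sept1, a septin of the cytoskeleton, was at 23.9 FPKM, 62.8 FPKM and 160 RPKM (-1.40). Cth, the last enzyme of the pathway from methionine to cysteine, was at 14.1 FPKM, 35.5 FPKM and 44.3 RPKM (-1.31). Trh, the thyrotropin-releasing hormone precursor, was at 35.9 FPKM, 80.4 FPKM and 97.0 RPKM (-1.19), against 33.9 FPKM and 23.7 RPKM in the KO libraries.

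Raet1d, a stress-induced ligand of natural killer cells, was at 1.08 FPKM, 5.19 FPKM and 5.47 RPKM (-1.61). Of 6 primitive endoderm genes at 5 or more, 5 lay below 0 and 2 were past 2-fold (0.736% of all genes were 2-fold lower): Col4a1 and Col4a2, which encode basement membrane collagen IV. Col4a1 was at 5.07 FPKM in KO plus WT, 11.7 in KO plus mutant 1 and 6.46 RPKM in KO plus mutant 2 (-1.11), and Col4a2 at 2.33 FPKM, 6.01 FPKM and 2.91 RPKM (-1.11). Both were thus nearer to KO plus WT in KO plus mutant 2, and the 7 defining markers of primitive endoderm were under 2 FPKM. Col4a2 passed the filter only through KO plus mutant 1.

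The 2-cell-like genes were lower in KO plus WT than in KO plus mutant 1 and higher than in KO plus mutant 2. These genes, among them the Zscan4 family, mark the few ES cells that enter a state resembling the embryo at the 2-cell stage. Zscan4c was at 13.0 FPKM in KO plus WT, 34.0 in KO plus mutant 1 and 2.31 RPKM in KO plus mutant 2, with log2 ratios of -1.37 and 2.00. It was at 18.8 FPKM and 3.35 RPKM in the KO and 7.30 FPKM and 16.0 RPKM in the het libraries. Zscan4f was at 15.2 FPKM, 45.4 FPKM and 4.04 RPKM (-1.57 and 1.60). The 2 mutant libraries thus lay on opposite sides of KO plus WT. Of 9 members at 5 or more, 8 were 2-fold lower in KO plus WT than in KO plus mutant 1 (0.736% of all genes were), with a median of -1.42. Over KO plus mutant 2 the median was 1.53 over the 7 members that it lists. Zscan4 genes are near-identical copies whose reads may be split. Dcdc2c, a doublecortin-domain gene outside the list, did the same, at 29.6 FPKM, 76.8 FPKM and 5.66 RPKM.

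Most other lists held few or no genes past 2-fold. None was past it among 58 genes of nuclear oxidative phosphorylation (median 0.01), 22 of cholesterol synthesis (-0.02), 26 of cell cycle and replication (-0.07), 12 of the NuRD complex, a known partner of SALL4 (0.01), 18 of Polycomb and trithorax (0.07), 26 of glycolysis and hypoxia (-0.15), 19 p53 targets (-0.27) and 19 of amino acid stress (-0.18). Over KO plus mutant 1, 15 of the p53 targets lay below 0, as did 16 of the amino acid stress genes and 20 of the glycolysis genes. Over all 7876 genes 52.3% lay above 0 and 2.06% were past 2-fold in either direction. At that share, few or no genes past 2-fold in lists of this size say nothing particular about a list. Asns, the asparagine synthetase induced by ATF4, was the lowest of the stress genes, at 106 and 164 FPKM and 160 RPKM (-0.66). Perp, a p53-induced membrane protein, was at 9.75 and 17.9 FPKM and 14.5 RPKM (-0.86). Ratios over KO plus mutant 2 were mixed. They were -0.68 for Asns and -0.62 for Perp, but 0.01 for Nupr1 and -0.03 for Pmaip1, against -0.53 and -0.59 over KO plus mutant 1. Of 75 ribosomal protein genes, 1 was past 2-fold and the median was -0.08. That gene, Rpl26, was at 5349 FPKM in KO plus WT, 1729 in KO plus mutant 1 and 2393 RPKM in KO plus mutant 2 (1.58, or 1.14 relative to the chromosome 11 median). Over KO plus mutant 2 the ribosomal list's median was 0.96, a difference between the mutant libraries. No Hox, Y-linked or neural crest gene on the lists was at 5 or more.

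Genes of chromosome 11 were higher in KO plus WT along the whole chromosome. Their median log2 ratio was 0.44 over 732 genes, of which 684 (93.4%) lay above 0, while the medians of the other chromosomes ran from -0.07 to 0.01. In 5 consecutive blocks of about equal numbers of genes along it the medians were 0.40, 0.48, 0.48, 0.41 and 0.45. Most of these genes were under 2-fold: 19 (2.6%) were past it up and 2 (0.273%) down. The same chromosome differed in other pairs of libraries, computed over genes at 5 or more in both, without small RNAs, and relative to each pair's median over all such genes. Its median was 0.41 for KO plus WT over KO plus mutant 2, -0.03 for KO plus mutant 1 over KO plus mutant 2, -0.46 for KO over het in replicate 1 and -0.45 in replicate 2. It was 0.36 for KO plus WT and -0.09 for KO plus mutant 1, each over Sall4 KO replicate 1.

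Relative to the median of 11 libraries, the level of 536 chromosome 11 genes was 0.26 in KO plus WT and 0.44 in both het libraries. In the other 8 libraries, both mutant and both KO libraries included, it lay between -0.16 and -0.03. The number of copies of the chromosome in these cells was not measured here. With each chromosome centred on its own median, 94 genes (1.19%) were 2-fold higher and 59 (0.749%) lower in KO plus WT, and outside chromosome 11 the counts were 85 (1.19%) and 56 (0.784%). Of the 12 genes with the largest ratios, Ifi35, Rpl26 and Nufip2 lie on this chromosome. Nufip2, an RNA-binding partner of the fragile X protein, was at 36.6 FPKM, 12.1 FPKM and 17.2 RPKM (1.47, or 1.03 relative to the chromosome).

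**Figure D4:**
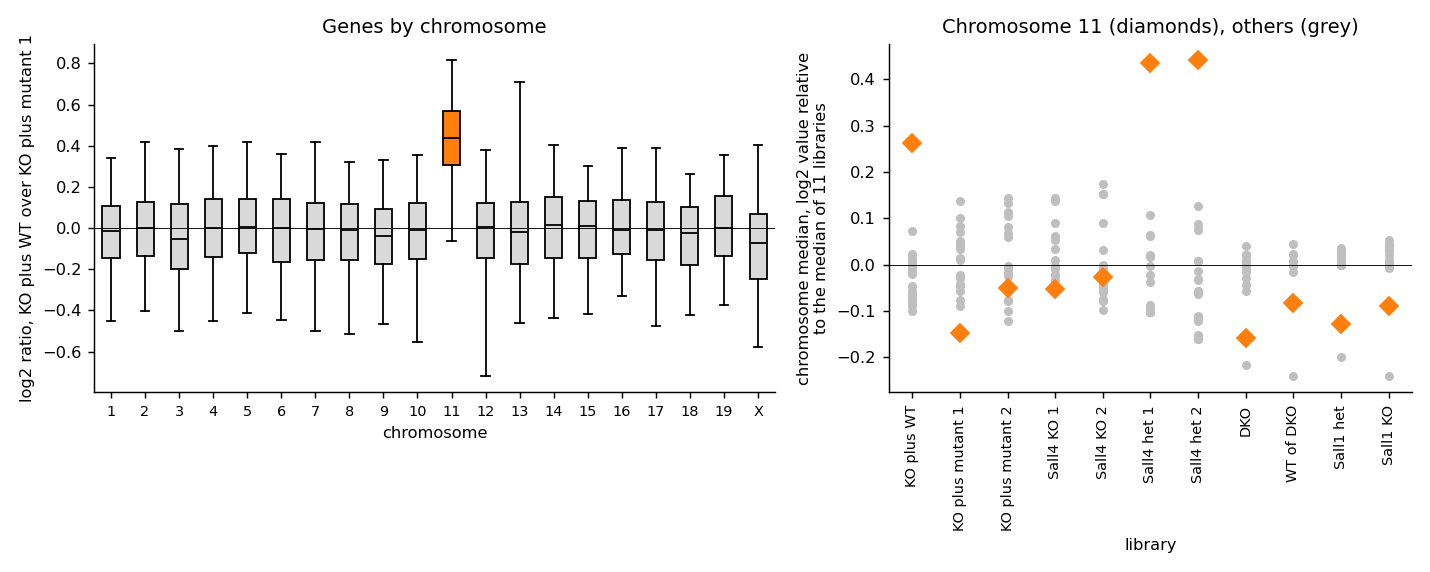
On the left, boxes give the median and quartiles (whiskers the 5th to 95th percentile) of the log2 ratio of KO plus WT over KO plus mutant 1 for genes of each chromosome. On the right, each point is the median over a chromosome's genes of the log2 value in 1 of 11 libraries relative to the median of the libraries; diamonds are chromosome 11, at 0.26 in KO plus WT and 0.44 in both het libraries.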

How the data were processed

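RNA-seq gene tables of 11 libraries were used, and the other samples of the series were not analysed here. The authors deposited FPKM for KO plus WT, KO plus mutant 1, replicate 1 of het and KO, and the 4 other groups, and RPKM for the replicate 2 libraries, per the file headers. The submitters' processing notes name the build mm9 and, without roles, MACS 1.4.2, Bowtie 0.12.7, SAMtools and TopHat; the tool behind each table is not given. Whole reads could not be recovered from the FPKM values, so depth is unknown.

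Log2 ratios used a pseudocount of 1, after scaling by the median ratio of genes at 1 or more in both libraries (11427 genes, a shift of 0.05), and a limit of 2-fold. A gene entered when either library reached 5, so a gene at 5 or more in only 1 of them entered through the library where it was higher. The +1 understates differences of low genes. In KO plus mutant 2, 20 symbols were set by identifier. The members, the 37 gene lists and the tests were chosen with earlier results of these data known. Named genes were the SALL and TET genes, the 12 largest ratios per direction, the 12 per direction by the smaller of the ratios over both mutant libraries, and up to 4 per list; predicted genes, clone names and small RNAs were left out of the rankings by ratio (Gm4340 is named as a list member), and not every gene the rule picks is reported. Intervals are those of the deposited tables and can span overlapping genes. Scripts (Python 3.11.15, pandas 2.3.3, numpy 2.4.6, matplotlib 3.10.9) were tested on simulated data.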

Additional observations from a re-analysis of the deposited data

How the results depend on the processing

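The counts past 2-fold were 175 higher and 100 lower in KO plus WT. No paired analysis was possible because KO plus WT has no replicate number and the counts come from no test. Against KO plus mutant 2 they were 355 and 1169, and against the mean of both mutant libraries the lower count was 445 (the higher count was 198). Genes at 5 or more in both libraries gave 105 and 47, a 4-fold limit 44 and 39, and a pseudocount of 5 gave 65 lower. Alternatives added after seeing the data gave 104 and 58 without small RNA entries, 94 and 59 with each chromosome also centred, and 67 and 26 past 2-fold over both mutant libraries. The remaining settings, which were no scaling, upper-quartile scaling, a pseudocount of 0.1, weaker filters and repeated symbols left out, moved neither count by 1.5 times. The cause of these moves was not tested, except that stricter limits and filters take fewer genes by construction.

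Of 67 genes the text could name that were past 2-fold, 65 or more remained past it without scaling, with upper-quartile scaling, with a pseudocount of 0.1 and with each chromosome centred, and 41 with a pseudocount of 5. Against KO plus mutant 2, 48 of 61 were past 2-fold in either direction, 7 of them with the other sign, and against the mean of both mutant libraries 49 of 65 were. The naming rule picks genes in part for large ratios over KO plus mutant 1 or over both mutant libraries. How many stay past 2-fold is thus partly fixed by that choice and is no independent check. Against KO plus mutant 2 the sign changed for Gm4340 (2.80), Dcdc2c (2.11), Zscan4c (2.00), Zscan4f (1.60), Zscan4d (1.53), Zscan4b (1.29) and Zscan4e (1.24), and for the median of the 2-cell-like list (1.53). Against the mean of both mutant libraries it changed for Gm4340 (0.56), Dcdc2c (0.36), Zscan4c (0.31), Zscan4d (0.10) and Zscan4f (0.018), and the list's median was 0.018. Unknown depth limits what can be said of genes near 5, and 1 library a side leaves every difference without a replicate check.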
